A study of Mus musculus with 10 samples.

Results

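A set of 36 nucleolar genes of ribosome production were followed through RNA sequencing and CUT&Tag of mouse neural stem and progenitor cells with and without Mina53, the protein of the gene Riox2. The set holds 36 named genes of 57180 in the RNA table. Its members were picked by name, as nucleolar factors near the known ribosomal role of Mina53. Earlier results of these data were known when they were picked. They were sorted into 7 roles: box C/D snoRNP, box H/ACA snoRNP, nucleolar chaperones, RNA polymerase I and its factors, small subunit processome, late small subunit maturation, and large subunit assembly. All 36 had enough counts to be tested, among 15298 genes tested in all.

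The RNA groups were 3 WT and 3 Mina53-KO libraries, made with a stranded poly(A) kit from cells purified from mouse brain. The CUT&Tag groups were 2 WT and 2 Mina53-KO libraries, in which an antibody directs a transposase to cut DNA near its target. The labels give no strain, age, brain region, antibody or design of the knockout, and no agent was named for either group. They do not say whether libraries of a group came from separate animals, so a p-value here reflects the spread among these particular samples, and that spread may be technical.

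Ribosome production starts in the nucleolus, where RNA polymerase I transcribes a long precursor of the ribosomal RNAs. Small nucleolar ribonucleoproteins modify that precursor, the small subunit processome folds and cuts it, and further factors build and export the large and small subunits. Mina53 is a nucleolar JmjC oxygenase known to hydroxylate the ribosomal protein Rpl27a, and fast-dividing progenitors are known for large, active nucleoli.

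The RNA libraries held 19923010 to 25939376 counts, and the CUT&Tag libraries 2913959 to 4038765 reads in 69418 regions. All 10 neural stem and radial glia markers passed the filter, with a summed level of 6942 to 7253 CPM (counts scaled to library size) in WT and 7482 to 8480 CPM in KO; Vim rose and Slc1a3 fell. Markers of microglia summed to at most 0.556 CPM and those of erythroid cells to at most 0.0837 CPM, with Cx3cr1, Hbb-bs and Hbb-bt at 0 in every library. The 5 astrocyte markers summed to 2281 to 3074 CPM in WT and 1808 to 2211 CPM in KO, and 2 of them fell (S100b and Aldoc). Endothelial and pericyte markers summed to 2.02 to 2.97 CPM in WT and 3.39 to 4.22 CPM in KO, with Cdh5 and Cldn5 at 0 in every library. Neuron markers, mostly Map2, summed to 532 to 708 CPM in WT and 678 to 945 CPM in KO; none of the 6 tested was called, 3 passed an unadjusted p of 0.05, and 3 were called higher with the covariate described below. Oligodendrocyte lineage markers, mostly Olig2, summed to 749 to 1105 CPM in WT and 737 to 1024 CPM in KO, and fibroblast and meningeal markers to 6.98 to 7.17 and 6.24 to 9.32 CPM. The part of these markers in the results below was not tested. In bulk RNA, fewer cells of a type and less RNA per cell cannot be told apart.

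The libraries also parted by their share of mitochondrial counts, in a way that did not match the genotypes. WT 1, KO 1 and KO 2 held 2.31% to 2.68%, and WT 2, WT 3 and KO 3 held 3.52% to 5.71%. The first 3 are called the lower-share and the last 3 the higher-share libraries here. Most lower-share libraries are KO and most higher-share ones are WT, so the grouping is partly confounded with genotype. This grouping was read from the counts and is not a group of the study.

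Riox2 itself was measured at 19.96, 17.2 and 18.5 CPM in WT 1 to 3 and at 3.26, 3.78 and 3.70 CPM in KO 1 to 3. Every KO library lay below every WT library. The log2 fold change was -2.37 (SE 0.15, edgeR adjusted p = 0.000324), a drop to 0.194 of the WT level. Riox1, the other nucleolar oxygenase of this family, had a log2 fold change of 0.067 (adjusted p = 0.94 by edgeR).

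In WT cells the 36 genes were among the better expressed ones. Their median level was 25.8 CPM per kb of gene model, where the median of all genes tested was 7.51, and the highest member stood 62.0 times above the lowest. Npm1, a histone chaperone that shuttles between nucleolus and cytoplasm, led with 388 ± 71.1 CPM per kb (SD, n = 3). Ncl, encoding nucleolin, followed with 124 ± 11.2, and Nop56, a core box C/D protein, with 74.8 ± 2.23, close to Fbl with 73.6 ± 13.7. The lowest were Rrp12 with 6.26 ± 0.890, a factor of pre-ribosome export, Utp15 with 8.87 ± 0.835, a processome subunit, and Polr1a with 9.28 ± 1.03, the largest RNA polymerase I subunit. The gaps between Npm1, Ncl and the next gene exceeded their spread, while Nop56 and Fbl, and likewise Utp15 and Polr1a, lay within it. Gene model lengths ran from 790 bases (Nop16) to 9507 (Nop58), and a level per length rests on the deposited length.

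**Figure D1:**
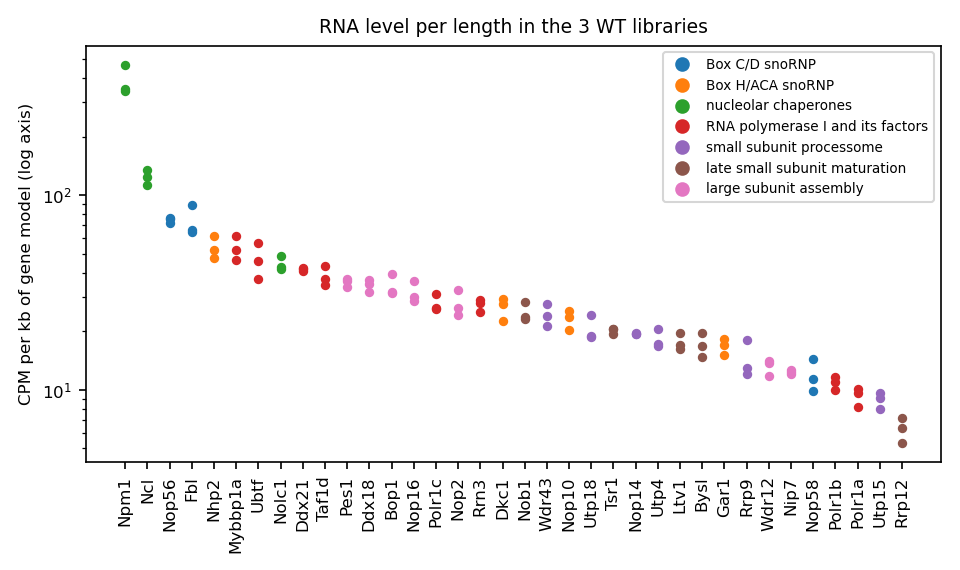
RNA level per length (CPM per kb of gene model, log axis) of the 36 genes in the 3 WT libraries, 1 point per library, coloured by role. Npm1 and Ncl stand above all others, and Rrp12 is lowest.

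Loss of Mina53 came with no called change in the RNA of any of the 36 genes. None passed an edgeR adjusted p of 0.05 in either direction, against 3.43% of all genes tested, and DESeq2 called none either. A single member, Wdr12, passed an unadjusted p of 0.05, against 13.7% of all genes. A p that misses the threshold does not show equal levels, but the intervals limit what could have been missed. All 36 of the 95% intervals lay inside a 2-fold change, and 33 of 36 lay inside a 1.5-fold change either way. The lowest lower limit was 0.752-fold (Rrp9) and the highest upper limit 1.61-fold (Wdr12).

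Small differences were more often above than below 0. The log2 fold change was above 0 in 28 of 36 members (77.8%), where 51.1% of all genes tested were above 0. The median was 0.07 for the members and 0.0061 for all genes, and the members ranged from -0.096 (Utp15) to 0.40 (Wdr12). That median was not steady: it was 0.0037 with the mitochondrial split, described below, as a covariate and 0.049 with the log2 share. With 1 library left out it was 0.052 (WT 2), 0.045 (KO 1), 0.039 (WT 3), 0.021 (KO 2), 0.11 (WT 1) or 0.12 (KO 3). Every KO library lay above every WT library for 4 members (Nop56, Ncl, Wdr12 and Ddx18), where 9.69% of all genes did so, and below for 0 members, where 9.26% did so. Summed over the 36 genes the level was 4195 ± 155 CPM in WT and 4517 ± 54.7 in KO (SD, n = 3), with Ncl and Npm1 together making 39.9% of it. Without the 4 members on chromosome 1 the sums were 2947 ± 98.9 and 3066 ± 128 CPM, and the libraries overlapped.

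**Figure D2:**
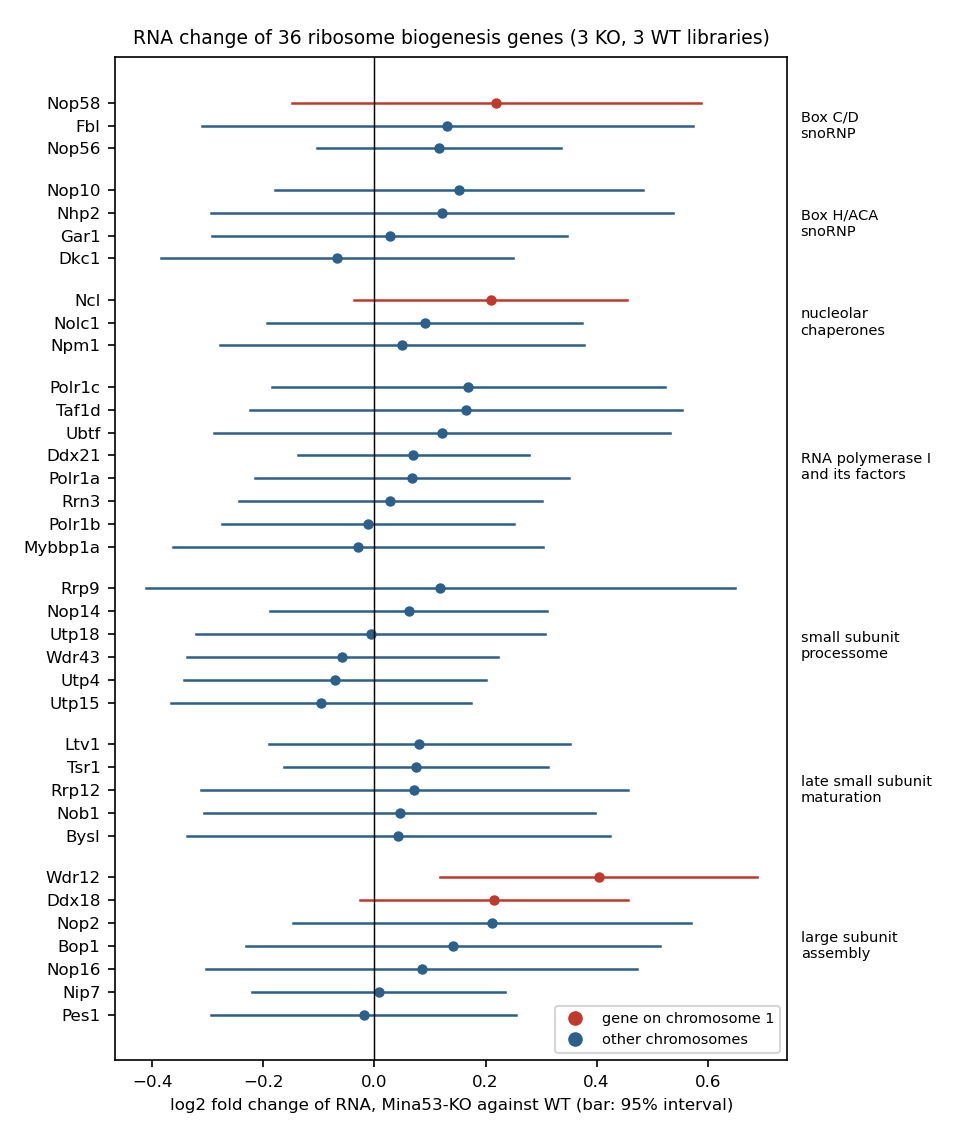
log2 fold change of RNA, Mina53-KO against WT, for each of the 36 genes in its role group, with the 95% interval of the edgeR fit. Red marks the 4 genes on chromosome 1; the interval of Wdr12 alone leaves out 0.

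The 3 members of the box C/D snoRNP, which methylates riboses of the precursor, all had values above 0. Nop58, a scaffold protein of the particle, was measured at 93.1, 137 and 108 CPM in WT and at 121, 124 and 148 CPM in KO. WT 2 lay inside the KO range, so the groups overlapped. Its log2 fold change was 0.22 (SE 0.16, edgeR adjusted p = 0.703). Nop56, its partner, stood at 141, 144 and 136 CPM in WT and 154, 158 and 145 CPM in KO, which do not overlap, yet the difference was only 0.12 on the log2 scale (SE 0.096, adjusted p = 0.759). Fbl, the methyltransferase of the particle, gave 0.13 with the widest interval of the 3 (-0.31 to 0.57).

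Among the 4 proteins of the box H/ACA snoRNP, which turns uridines into pseudouridines, 3 had values above 0 and Dkc1, the enzyme, was below (-0.068). Nop10, a small structural subunit, had the smallest p. It was measured at 26.3, 28.2 and 22.4 CPM in WT and 30.5, 30.7 and 24.3 CPM in KO, with WT 2 above KO 3. The log2 fold change was 0.15 (95% interval -0.18 to 0.48, edgeR adjusted p = 0.813). Nhp2 and Gar1, the other subunits, gave 0.12 and 0.028.

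Of the nucleolar chaperones, nucleolin had the largest difference. Ncl was measured at 921, 1106 and 1018 CPM in WT and 1129, 1139 and 1252 CPM in KO, so every KO library was above every WT library. The log2 fold change was 0.21 (95% interval -0.036 to 0.45, edgeR adjusted p = 0.479). Npm1 overlapped, with 557, 767 and 576 CPM in WT and 616, 636 and 715 CPM in KO (log2 fold change 0.050, adjusted p = 0.943). Nolc1, a chaperone of snoRNPs, gave 0.090.

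The 8 genes of RNA polymerase I and its factors had log2 fold changes from -0.030 (Mybbp1a, a nucleolar repressor of transcription) to 0.17 (Polr1c). Polr1c, a subunit shared with RNA polymerase III, had the smallest p. It stood at 40.8, 34.2 and 34.4 CPM in WT and 43.9, 46.0 and 33.0 CPM in KO, with KO 3 lowest of all 6 (log2 fold change 0.17, SE 0.15, edgeR adjusted p = 0.80). Polr1a was measured at 93.4, 75.0 and 88.2 CPM in WT and 95.05, 92.2 and 81.7 CPM in KO. Its groups overlapped, and the log2 fold change was 0.068. Ubtf, the architectural factor of ribosomal DNA, and Rrn3, which recruits the polymerase, gave 0.12 and 0.028.

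The small subunit processome was the 1 role with a median below 0 (-0.032), and 2 of its 6 genes were above 0. Utp15 was measured at 32.8, 39.5 and 37.3 CPM in WT and 32.0, 35.8 and 34.7 CPM in KO. The groups overlapped, with WT 1 near the bottom, and the log2 fold change was -0.096 (95% interval -0.37 to 0.17, edgeR adjusted p = 0.868). Rrp9, which binds the U3 snoRNA, had the largest spread, at 28.5, 19.2 and 20.4 CPM in WT and 26.1, 30.4 and 17.5 CPM in KO.

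In late small subunit maturation all 5 genes were slightly above 0, between 0.043 (Bysl) and 0.081 (Ltv1). Tsr1, a GTPase-like factor of the pre-40S particle, stood at 65.2, 69.9 and 69.6 CPM in WT and 72.7, 67.1 and 75.8 CPM in KO. KO 2 lay inside the WT range, and the log2 fold change was 0.075 (edgeR adjusted p = 0.883). Rrp12 was measured at 30.9, 23.1 and 27.5 CPM in WT and 32.1, 30.7 and 22.9 CPM in KO, with the lowest library in KO (log2 fold change 0.072).

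Large subunit assembly held the largest difference of the set. Wdr12, a WD-repeat protein that forms the PeBoW complex with Pes1 and Bop1, was measured at 38.3, 45.9 and 44.5 CPM in WT and 55.8, 52.0 and 62.4 CPM in KO. The groups did not overlap, and the log2 fold change was 0.40 (95% interval 0.12 to 0.69). The unadjusted p was 0.0113 and the edgeR adjusted p 0.154. Its partners did not share that difference in size: Bop1 gave 0.14 (95% interval -0.23 to 0.51) and Pes1 -0.019 (-0.29 to 0.26), though the difference between the partners was not tested. Ddx18, a helicase, was named after its values were seen; it stood at 82.7, 78.5 and 71.5 CPM in WT and 92.6, 91.6 and 86.0 CPM in KO (log2 fold change 0.22, edgeR adjusted p = 0.443). Counts of Wdr12, Ddx18, Nop56, Npm1, Fbl, Tsr1, Ubtf and 3 further members were not whole numbers, so reads shared with other gene models may have been split among them.

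Nop58, Ncl, Wdr12 and Ddx18 have chromosome 1 in common. They hold 4 of the 5 largest log2 fold changes of the set, the other being Nop2 on chromosome 6 with 0.21. The 817 tested genes of chromosome 1 had a median log2 fold change of 0.22, or 1.16-fold, and 83.5% were above 0. On the other 19 chromosomes the median ran from -0.057 to 0.032 and the share above 0 from 40.1% to 57.6%. Relative to the chromosome 1 median, Nop58 stood at -0.0001, Ncl at -0.010 and Ddx18 at -0.0041, and Wdr12 stood 0.18 above it. The SE was 0.16 for Nop58 and 0.11 for Ncl, so these estimates are too coarse to show such closeness. The distances are those of the fit without a covariate. With the mitochondrial split as covariate Nop58, Ncl and Ddx18 had 0.34, 0.27 and 0.18, and the chromosome 1 median was 0.25.

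The shift along chromosome 1 was present in each KO library. Each library's median deviation of chromosome 1 genes from their own mean was -0.17, -0.052 and -0.093 on the log2 scale in WT 1 to 3, and 0.073, 0.065 and 0.18 in KO 1 to 3. The groups did not overlap (exact two-sided permutation p = 0.1, the smallest that 3 against 3 allows). The KO minus WT difference was 0.24 among lower-share and 0.26 among higher-share libraries. Each rests on a single library of a genotype, WT 1 in the first and KO 3 in the second. Off chromosome 1, the remaining 32 members had a median of 0.069 with 24 above 0, where the other genes had -0.0040. CUT&Tag regions of chromosome 1 showed no shift of that kind, with a median log2 fold change of 0.024 where the other chromosomes ran from -0.053 to 0.038. The CUT&Tag libraries are other samples than the RNA ones, 2 per group, with a median of 36 reads per region and library. The cause of the shift was not tested, and chromosome 1 was singled out after the values were seen.

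**Figure D3:**
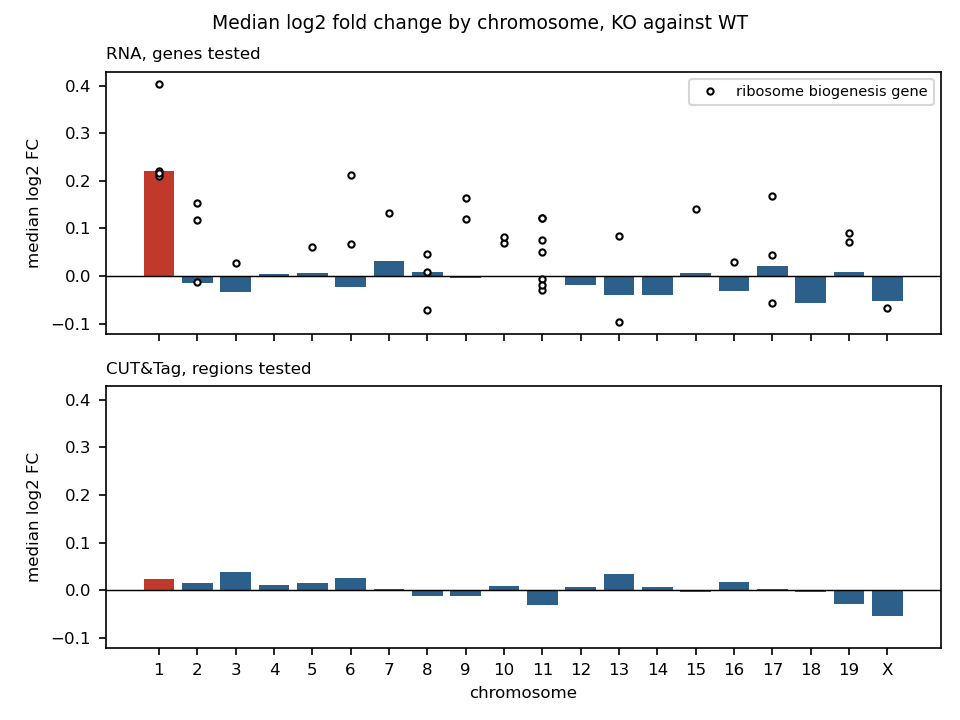
Median log2 fold change, Mina53-KO against WT, by chromosome, for RNA of all genes tested (top, circles mark the 36 genes) and for CUT&Tag regions (bottom). Chromosome 1 (red) stands at 0.22 in RNA and 0.024 in CUT&Tag.

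Most of these genes, like most genes tested, differed more between higher- and lower-share libraries than between genotypes. The split was read from these same counts and is uneven in genotype, so the comparison is not an even one. In 28 of 36 members (77.8%, against 64.2% of all genes) the difference between higher- and lower-share libraries was larger in size than the log2 fold change of the knockout. For 17 members every higher-share library lay below every lower-share library, where 21.3% of all genes did so, and for 3 members (Dkc1, Rrn3 and Wdr43) above, where 20.5% did so. Members of 1 complex had unlike values: in the box C/D snoRNP the higher minus lower-share difference was -0.47 on the log2 scale for Fbl, without overlap, -0.095 for Nop56 and 0.21 for Nop58, both with overlapping libraries. Whether they differ from each other was not tested. Rrp9 had the largest difference of the set, -0.57. Of the 79 cytosolic ribosomal protein genes, 51 lay below in the same sense.

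With the split as a covariate, 3 of the 4 chromosome 1 members passed the test of the knockout. That fit called 3 members higher, Nop58 (edgeR adjusted p = 0.0474), Ncl (0.0344) and Wdr12 (0.0025), and 0 lower, against 5.9% of all genes higher and 5.18% lower. The other chromosome 1 member, Ddx18, did not pass (edgeR adjusted p = 0.193). All 3 called members are chromosome 1 genes, as were 233 of the 902 genes called higher in that fit. Those 233 were out of 817 tested genes of chromosome 1, so calls were common there. Off chromosome 1 the members' median became 0.0026. Leaving out single libraries took the count of members called higher from 0 (without WT 1, and without KO 3) to 6 (without WT 2). Since the split was read from the counts, these calls were not independent of them.

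**Figure D4:**
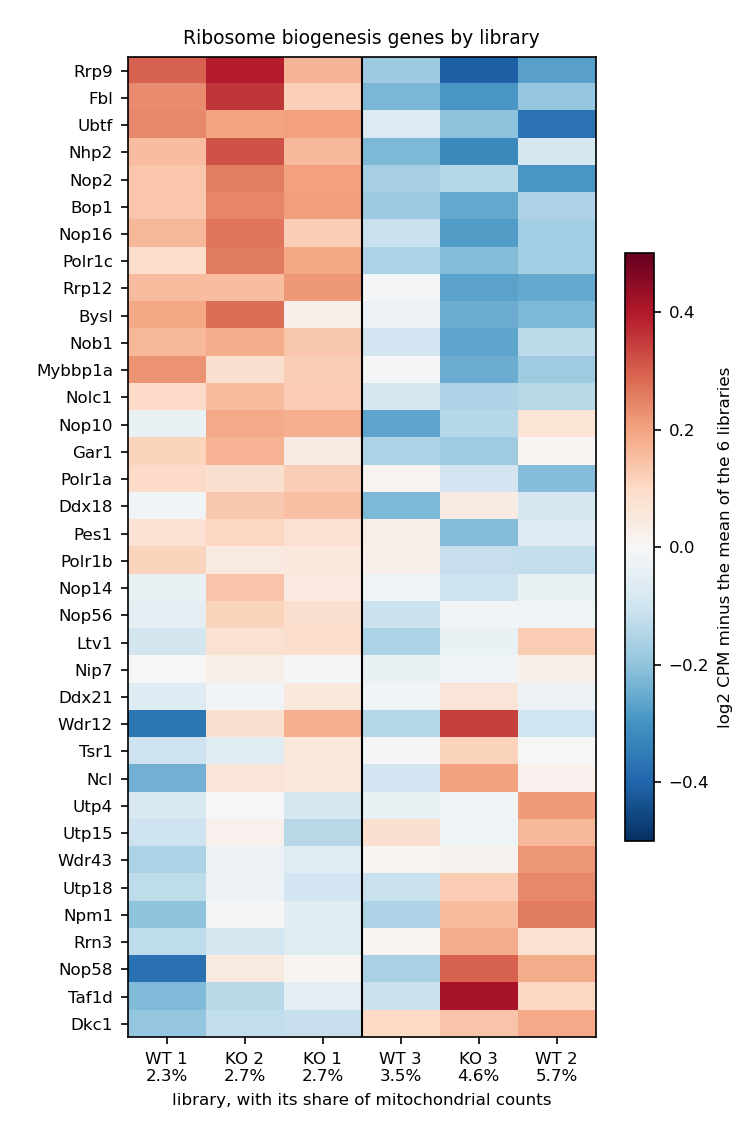
Level of the 36 genes in each RNA library as log2 CPM minus the mean of the 6 libraries, with libraries ordered by their share of mitochondrial counts and genes by the difference between higher- and lower-share libraries. The black line parts the lower- from the higher-share libraries. For 17 genes every higher-share library lies below every lower-share one, and for 3 above. Libraries are not ordered by genotype, so no line parts WT from KO.

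Among 116 other ribosome biogenesis genes none was called by edgeR either. An unadjusted p of 0.05 was passed by 4 of the 116, where 13.7% of all genes tested passed it. The list's median log2 fold change was 0.059, with 81 of 116 above 0 (69.8%, against 51.1% of all genes tested). The 2 genes of the list with the smallest p were both on chromosome 1. Nvl, an ATPase of large subunit assembly, averaged 76.0 ± 1.77 CPM over WT libraries and 97.4 ± 9.77 over KO libraries (SD, n = 3; log2 fold change 0.36, edgeR adjusted p = 0.157). Rrp15 had means of 22.0 ± 3.78 and 31.1 ± 3.84 CPM (log2 fold change 0.50, adjusted p = 0.174). All 7 tested genes of the list on chromosome 1 were above 0, with a median of 0.29, and the 109 others had a median of 0.051. Of the 79 cytosolic ribosomal protein genes none was called by edgeR and 1 passed an unadjusted p of 0.05, with a median of 0.068.

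MYC proteins are known activators of ribosome production. Of 11 genes of the MYC network edgeR called none, and 3 passed an unadjusted p of 0.05, which 13.7% of all genes did. Myc stood at 104, 73.9 and 88.8 CPM in WT and 99.7, 110 and 83.7 CPM in KO (edgeR adjusted p = 0.849). Mycn was low throughout, at 0.633, 0.74 and 0.579 CPM in WT and 1.04, 1.54 and 1.91 CPM in KO. The groups did not overlap, and the log2 fold change was 1.204 (SE 0.31, adjusted p = 0.0913 by edgeR). With the mitochondrial split as a covariate Mycn was called higher (edgeR adjusted p = 0.0211), as the 1 gene of the network that was.

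CUT&Tag reads were assigned to genes by the gene name that the authors gave each region. The table held 41 regions for 24 of the 36 genes (66.7%), where 74.3% of all genes tested for RNA had at least 1. Of the members, 20 (55.6%) had a region within 1 kb of their start, where 52.1% of those genes did. Members with no region were Bysl, Fbl, Gar1, Mybbp1a, Nop16, Nop58, Pes1, Polr1c, Taf1d, Tsr1, Utp15 and Wdr12, so 2 of the 4 chromosome 1 members have no CUT&Tag value. The 3 members with the most WT reads near their start were Ncl (222 reads), Nop14 (205) and Utp18 (189). Their 250 bases before the start, from RefSeq on build GRCm38.p6, are shown in gene orientation, as the promoters of the members with most signal near their start; capitals mark matches to the searched motifs. All 3 genes lie on the minus strand, at chr1:86359456-86359705, chr5:34660149-34660398 and chr11:93885767-93886016. CUT&Tag regions below are on GRCm39, and how they lie against these letters was not determined.
Ncl: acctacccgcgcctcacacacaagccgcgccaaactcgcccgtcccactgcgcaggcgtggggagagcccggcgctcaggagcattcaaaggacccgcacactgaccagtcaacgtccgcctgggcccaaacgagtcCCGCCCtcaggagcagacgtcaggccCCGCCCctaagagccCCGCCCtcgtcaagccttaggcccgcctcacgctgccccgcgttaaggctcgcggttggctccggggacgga
Nop14: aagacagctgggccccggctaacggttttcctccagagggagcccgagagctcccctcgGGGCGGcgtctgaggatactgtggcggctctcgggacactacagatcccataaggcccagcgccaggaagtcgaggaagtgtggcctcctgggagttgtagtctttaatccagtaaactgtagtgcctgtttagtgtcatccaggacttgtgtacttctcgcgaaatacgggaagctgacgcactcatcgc
Utp18: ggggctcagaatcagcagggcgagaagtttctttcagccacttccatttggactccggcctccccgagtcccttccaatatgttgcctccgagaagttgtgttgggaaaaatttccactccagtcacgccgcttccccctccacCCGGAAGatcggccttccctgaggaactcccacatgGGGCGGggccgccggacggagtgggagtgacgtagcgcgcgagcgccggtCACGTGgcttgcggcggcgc

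Searched on both strands were CACGTG (the E-box bound by MYC), GGGCGG (the GC box), CCGGAAG (an ETS site), CGCATGCG (NRF1) and CTCGCGAG, over windows from 250 bases before to 50 after the start; no motif contains another. Ncl holds 3 GC boxes, starting 113, 87 and 72 bases before the start, Nop14 holds 1 at 191, and Utp18 an ETS match at 106, a GC box at 70 and an E-box at 20. Promoters were found for 32 of 36 members. The GC box was in 78.1% of them, in 38.2% of all 27025 genes of the RefSeq table and in 68.6% of those tested for RNA. The E-box was in 28.1% of members, 8.1% of all genes and 11.4% of tested ones, and the ETS letters in 34.4%, 9.9% and 19.1%. The NRF1 letters were in 2 of 32 members, and in 2.1% of all and 4.2% of tested genes. CTCGCGAG was in 1 of 32 members, and in 1.0% of all and 2.2% of tested genes. A match is a description of letters and not a bound site. Members' windows had a median GC content of 60.2%, and those of all genes 52.7%.

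No member region was called in CUT&Tag by edgeR or by DESeq2. Over all regions 0.00722% passed an edgeR adjusted p of 0.05. At an unadjusted p of 0.05, 2 member regions passed, where 5.35% of all regions did. A region of a member held 8 to 126 reads in a library, so single regions were measured coarsely, with a median SE of 0.36 on the log2 scale.

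Near gene starts most member regions were lower in KO. Of 21 regions within 1 kb of a start, 17 had a log2 fold change below 0, with a median of -0.33; over all 14081 such regions 61.8% were below 0 and the median was -0.11. Both KO libraries lay below both WT libraries in 10 of 21 member regions, where 27.1% of all such regions did so, and above in 1 (Rrn3), where 11.3% did so. The median of the 20 member regions farther away was -0.16. With library totals from the deposited values in place of edgeR's scaling, the median near starts was -0.25 with 14 of 21 below 0, and all regions near starts had -0.030. Without WT 2 the members' median was -0.18.

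Ncl had the most-read region of the set, and Npm1 the start region with the smallest p. The Ncl region at its start (chromosome 1, 86287076 to 86287647) counted 106 and 116 WT reads against 107 and 105 KO reads, or 34.3 and 40.1 against 26.1 and 31.1 CPM. Both KO libraries were lower, and the log2 fold change was -0.38 (95% interval -0.78 to 0.020, edgeR adjusted p = 0.933). The Npm1 start region (chromosome 11, 33112839 to 33113327) counted 66 and 65 WT reads against 45 and 57 KO reads, or 21.3 and 22.5 against 10.98 and 16.9 CPM. Its log2 fold change of -0.67 (95% interval -1.21 to -0.12) had an unadjusted p of 0.0170 and an edgeR adjusted p of 0.895. The other Npm1 region within 1 kb gave -0.80 (edgeR adjusted p = 0.933), also without overlap. A further Ncl region, 8434 bases from the start, went the other way, with 0.25 (edgeR adjusted p = 0.971) and overlapping libraries. The RNA difference of Ncl was above 0 in every fit, and that of Npm1 had no steady sign: it was -0.035 without WT 1, -0.025 without WT 3, -0.029 without KO 3 and 0.20 without WT 2.

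The other regions with small p went both ways. The smallest p of all 41 was that of a region inside Bop1 (chromosome 15, 76356745 to 76356991), with 22.6 and 15.6 CPM in WT and 12.2 and 10.4 in KO (log2 fold change -0.76, unadjusted p = 0.0140, edgeR adjusted p = 0.870). The Nop14 start region (chromosome 5, 34817320 to 34817921) had 34.6 and 33.9 CPM in WT and 28.5 and 22.5 in KO, a log2 fold change of -0.42. At the Polr1a start (chromosome 6, 71886010 to 71886347) values were 12.9 and 14.5 CPM in WT and 9.51 and 6.82 in KO, a change of -0.74. A distant region given to Utp18 (chromosome 11, 93720921 to 93721130), 45839 bases from its start, was higher, with 7.12 and 6.92 CPM in WT and 12.7 and 11.9 in KO (log2 fold change 0.80). None of these passed the adjusted test (edgeR adjusted p of 0.870 to 0.933).

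The start regions of Nop56 and Nop10 overlapped between groups. Nop56 held 18.4 and 14.5 CPM in WT and 15.4 and 10.7 in KO (log2 fold change -0.33), and Nop10 held 9.70 and 10.4 CPM in WT and 10.0 and 14.2 in KO (0.26). The region of Rrp12 lies 3310 bases from its start and had 13.3 and 10.7 CPM in WT and 8.54 and 8.003 in KO (-0.53), with both KO libraries below both WT libraries. Ddx18 had at most 23 reads in a library. The Riox2 start region, for comparison, had 7.12 and 8.997 CPM in WT and 3.90 and 3.26 in KO (log2 fold change -1.15, edgeR adjusted p = 0.933), without overlap.

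**Figure D5:**
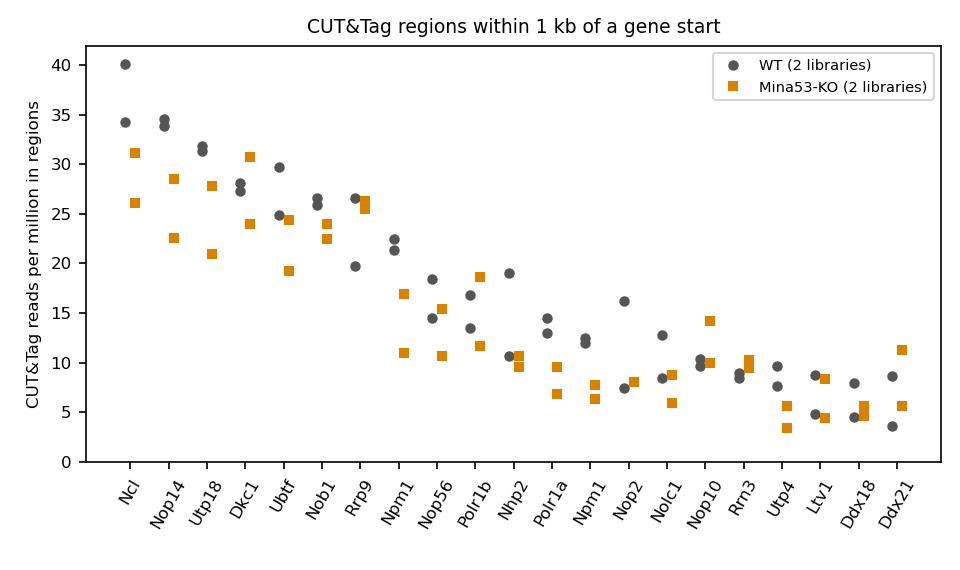
CUT&Tag level (CPM, relative to all reads in regions) of the 21 regions within 1 kb of a gene start that carry the name of a ribosome biogenesis gene, in 2 WT (circles) and 2 Mina53-KO (squares) libraries. Npm1 has 2 such regions; both KO points lie below both WT points in 10 regions.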

How the data were processed

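RNA values are expected counts per gene that the authors deposited; HISAT2, StringTie and build GRCm39 are named in the submitters' processing notes, with no source used here naming the counting tool, its use of strand or the annotation. They were rounded to whole counts. CUT&Tag values are read counts per region that the authors deposited, with gene name and distance to the start; no source used here names the peak caller or antibody. The p-values that the authors deposited with each region were not used, since no source states their test. The library totals behind 1 alternative came from the deposited RPM values. Fold changes are log2 values computed here from the deposited counts.

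Each assay was fitted across all features with edgeR 4.0.16 in R 4.3.3 (TMM, filterByExpr with a minimum count of 10, robust quasi-likelihood, genotype only), with p-values adjusted by Benjamini-Hochberg over 15298 genes or 69209 regions; DESeq2 1.42.0 was an alternative. The SE is the log2 fold change divided by the square root of F, and intervals cover 95%. CPM are TMM-scaled except in summed marker levels. The script was tested on simulated counts that held neither the mitochondrial split nor the chromosome 1 shift. Chromosomes were matched by symbol to RefSeq for 13895 of 15298 genes.

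Members, lists and tests were chosen with earlier results of these data known. Values in every library are given for Riox2, members called (none), the smallest p in each role, and the 3 highest and 3 lowest levels per length; regions named are the 5 with the smallest p and the most-read region near the start of those genes; other lists give the 2 with the smallest p, or Myc and Mycn; promoters are those of the 3 members with most WT reads. Further regions of Ncl and Npm1 are given beside their start regions. Alternatives were other scalings, filters, DESeq2, the mitochondrial split, a replicate block and each library left out. No pair of RNA libraries agreed within sampling noise, but KO 1 and KO 2 were far more alike than any other pair. The mean chi-square per gene, larger for less alike libraries, was 4.84 for them and 21.48 to 93.65 for all other pairs.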

Additional observations from a re-analysis of the deposited data

How the results depend on the processing

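No member was called in either direction under other scalings, other filters, DESeq2, the fit without mitochondrial genes or with any 1 RNA library left out. The exceptions were the mitochondrial split and the log2 mitochondrial share as covariates, with 3 members called higher each; leaving out single libraries in the fit with the split, added after seeing the data, gave 0 to 6. The members' median log2 fold change ran from 0.0037 to 0.12. The chromosome 1 median, also added later, ran from 0.16 to 0.25. The WT level of the members stood at the 78.4 percentile of all genes per length and at 76.4 without division by length. For CUT&Tag the median of member regions near starts ran from -0.40 to -0.18 with 1 library left out, the latter without WT 2, and was -0.34 with the replicate block; no setting called a member region. Whether replicate numbers pair the RNA libraries was not settled. Same-numbered deviations correlated at 0.46, -0.37 and 0.27, where the best match of another number gave 0.48, 0.56 and -0.14. The replicate block called 0 members and 229 genes, where 525 were called without it. With 8 to 126 reads per region, depth limits what CUT&Tag could show.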

Other observations

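The shift of chromosome 1 was spread along its whole length. In 10 windows of 20 Mb, holding 25 to 109 tested genes each, the median log2 fold change of RNA ran from 0.16 to 0.26, and 74.7% to 92% of genes were above 0. Of the 817 tested genes of chromosome 1, 40 were called higher and 14 lower by edgeR without a covariate. Over all 15298 genes tested, 271 were called higher and 254 lower. In the fit with the mitochondrial split the chromosome 1 median was 0.25, where the other chromosomes ran from -0.035 to 0.013. That fit called 5 of the 116 other ribosome biogenesis genes higher (Wdr75, Rrp15, Nvl, Taf1a and Nifk), where 5.9% of all genes were. These 5 all lie on chromosome 1, where 233 of 817 tested genes were called higher in the same fit.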
